A study of Mus musculus with 17 samples.

Results

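The transcription factors that give the dorsal telencephalon, or pallium, its identity were followed in cells from 2 walls, dorsal and lateral, of the subventricular zone (SVZ), the layer along the lateral ventricle that keeps making neurons for the olfactory bulb after birth. The 7 genes were Emx1, Emx2, Pax6, Dmrta2, Tfap2c, Fezf2 and Lhx2. They were found by gene name among the probes of the array, and all 7 passed the filter on dim probes, out of 26447 genes tested. Dmrta2, Tfap2c, Fezf2, Emx1 and Lhx2 had 1 probe each, and Emx2 and Pax6 had 2. For those the brighter probe represented the gene.

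Progenitors of either SVZ wall were electroporated in living CD1 mice on postnatal day 1, and their GFP-positive progeny was sorted by flow cytometry after 8 hours or 1, 2, 4, 7 or 14 days. Each of the 17 Agilent arrays held 1 dorsal sample in Cy3 and 1 lateral sample of the same time in Cy5, so 8 hours and 2 days had 2 arrays each, 1 day, 4 days and 7 days had 3 each, and 14 days had 4. Per the labels these are biological replicates, and they do not say how many animals each sample pooled. All groups shared strain, age at electroporation, sorting and amplification, and no sample was from cells that had not been electroporated. Sorted cells were all progeny of the targeted wall that still carried GFP, so a lower level of a gene cannot be told apart from fewer cells that express it.

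In the embryo the pallium forms cortex, and the subpallium beside it forms the basal ganglia and most inhibitory neurons. A set of transcription factors in the ventricular zone holds the pallial side: Emx2, Pax6, Lhx2 and Dmrta2 act in progenitors and set up cortical areas and the border to the subpallium, Tfap2c acts in progenitors that make upper-layer neurons, and Fezf2 acts in progenitors and specifies deep-layer projection neurons. Emx1 marks nearly the whole pallial lineage. After birth the dorsal SVZ wall descends mainly from the pallium and the lateral wall mainly from the subpallium. Pax6 has a further role there, in neuroblasts that become dopaminergic periglomerular cells of the olfactory bulb.

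A member's level stands for what its probe binds, and the probes below are shown because 2 members rest on 1 part of their transcript and because the Pax6 probes read different parts. All are printed 5′ to 3′ from the array design, in mm9 coordinates, with no part in capitals. The Emx1 probe reads the homeobox, the part that codes for the DNA-binding domain, across an exon junction (chr6:85144192-85153937, + strand). The Fezf2 probe reads the coding sequence of a zinc finger (chr14:13175057-13175116, - strand). The brighter Pax6 probe reads the coding sequence past the homeobox, across a junction (chr2:105535591-105536463, + strand), and the dimmer one reads into the alternatively spliced exon within the paired box (chr2:105524098-105524949, + strand), so it sees only transcripts that hold that exon.
Emx1: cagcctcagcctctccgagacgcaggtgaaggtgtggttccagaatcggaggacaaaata
Fezf2: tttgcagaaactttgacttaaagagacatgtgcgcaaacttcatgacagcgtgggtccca
Pax6, brighter probe: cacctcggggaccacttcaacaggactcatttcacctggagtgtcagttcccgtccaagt
Pax6, dimmer probe: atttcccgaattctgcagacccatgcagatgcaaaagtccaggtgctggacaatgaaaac
No domain is named for the remaining probes. Those of Dmrta2 (chr4:109656028-109656087), Tfap2c (chr2:172383860-172383919), Lhx2 (chr2:38224933-38224992) and Emx2 (chr19:59538595-59538654, and the dimmer one at chr19:59539142-59539201) lie on the + strand in single blocks of 60 bases and are named only.

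The RefSeq promoter table of GRCm38.p6 held windows of 300 bases (250 before and 50 after the start site) for 6 members, 8 windows in all. They were rich in CpG, with a median of 26 CpG and 64.0% G or C, against 7 and 52.7% over 32851 promoters. The letters TAATTA, which read the same on both strands and form the core bound by many homeodomain proteins, occurred in 1 of the 8 windows and in 5.29% of all promoters. CCAAT, searched on both strands, occurred in 3 of 8 windows and in 37.4% of all promoters. The TAATTA match lay in the Emx2 window, starting at base 37 after the start site, and is printed in capitals with its flanks as far as the window goes (chr19:59458714-59458739, + strand).
Emx2: tgatccccgcacTAATTAggctcatg
A match of letters is a description and no evidence of binding.

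The share of probes well above background ran from 41.0 to 76.7% over dorsal and from 56.4 to 79.4% over lateral samples. The replicate 1 array of 1 day and the replicate 2 array of 14 days were unlike the rest, with a median correlation to the other arrays of 0.69 and 0.77, across genes, which are not independent replicates. The arrays lay on 5 slides. All 1 day arrays were on slide 2 and all 14 days arrays on slide 5, so time and slide cannot be told apart for those, while slides 1, 3 and 4 each held early and late arrays. The 11 genes listed for radial glia and SVZ stem cells, the labelled target, were well above background in 93.0% of gene-by-array readings in dorsal and 95.7% in lateral samples. The microglia list reached 96.7% in both walls and the neuroblast list 100%, so detection does not tell these cell types apart. All differences between walls below are log2 ratios, dorsal minus lateral, within an array. The dorsal sample was in Cy3 on every array, so any fixed dye bias of a probe is part of each wall difference and drops out of changes over time. The labels also give the RNA of the dorsal channel as polyA RNA and that of the lateral channel as total RNA on all 17 arrays, while they describe a single extraction and amplification, and any difference this made cannot be told apart from the wall.

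The first question was whether the pallial factors differed between the walls. All 7 were higher in dorsal than in lateral samples when the 6 time points were averaged with equal weight, and 5 of 7 passed the test. Tfap2c was 9.35-fold higher, Dmrta2 5.06-fold, Emx1 3.13-fold and Emx2 1.66-fold. The fitted fold of Fezf2 was 8.27, which is uncertain because its lateral signal was well above background on 12 of 17 arrays. Of all genes tested, 1.29% were called higher in dorsal and 1.09% lower. The members' median log2 difference was 1.64, beside 0.02 over all genes, and the unadjusted p was under 0.05 for 7 of 7 members and for 16.3% of all genes. The members and gene lists were chosen with earlier results of these data known. Here and below, setting them beside all genes is therefore a description and no independent support.

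Dmrta2, a zinc finger factor of the doublesex family that sets up medial and caudal cortex, was higher in dorsal on all early arrays. Its log2 ratio was 4.50 and 4.11 (8 hours), 3.62, 2.42 and 3.31 (1 day) and 3.47 and 3.43 (2 days). Later it was 2.82, 2.25 and 2.91 (4 days), 1.05, 0.82 and 2.26 (7 days) and 0.59, -0.72, -0.28 and -3.07 (14 days). Every early array and every array of 4 and 7 days was higher in dorsal, and of the 14 days arrays only replicate 1 was. The mean over time points was 2.34 ± 0.22 (SE, n = 17 arrays, limma with Benjamini-Hochberg adjusted p = 0.00128), higher in dorsal on 14 of 17 arrays. Of 14 other settings and 17 fits without 1 array, the call ended in 1, with scan day as a block and 1 day left out (2.01, adjusted p = 0.063).

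Tfap2c codes for AP-2 gamma, a factor of basal progenitors. Its log2 ratio was 5.66 and 4.15 (8 hours), 5.05, 2.04 and 2.47 (1 day) and 5.98 and 5.13 (2 days). At the later times it was 4.52, 0.79 and 1.07 (4 days), -1.45, 3.68 and 3.34 (7 days) and -0.00, -0.20, 3.06 and 4.00 (14 days). All early arrays were higher in dorsal by 2.04 or more, while the late ones ran from -1.45 to 4.52, with 7 days replicate 1 and 14 days replicates 1 and 2 at or below 0. Its mean of 3.22 ± 0.48 (SE, n = 17, limma adjusted p = 0.0059) came with higher dorsal values on 14 of 17 arrays. The call was lost with slide as a fixed block over the 3 slides that cross time points (3.58, adjusted p = 0.096) and with scan day as a block (3.17, adjusted p = 0.135).

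Fezf2, a zinc finger repressor, was the member higher in dorsal on the most arrays, 16 of 17. Its log2 ratio was 3.93 and 2.79 (8 hours), 4.33, 3.38 and 1.48 (1 day) and 5.22 and 4.28 (2 days). Its later values were 3.78, 0.10 and 1.67 (4 days), 3.37, 3.91 and 2.21 (7 days) and 1.36, 5.32, 1.79 and -0.07 (14 days). The values overlapped between early and late arrays, and the lowest were at 4 days replicate 2 and 14 days replicate 4. At 4 days replicate 2 neither wall was well above background. The mean difference was 3.05 ± 0.39 (SE, n = 17, limma adjusted p = 0.00318), and 4.29 with processed signals. At 7 days no lateral array was well above background, so the size of the difference there is uncertain. Against the lowest signal called well above background on each array, the dorsal mean was 7.53-fold higher. This is no strict lower bound and is open to dye bias. On replicate 1 a brighter lateral signal, that of Dmrta2 at 6.93, was not well above background either. The call was lost with slide (3.35, adjusted p = 0.0511) or scan day (3.22, adjusted p = 0.0636) as a fixed block and kept in all 17 fits without 1 array.

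The Emx genes code for homeodomain proteins related to empty spiracles of the fly. The log2 ratio of Emx1 was 2.23 and 3.17 (8 hours), 1.58, 0.59 and 3.56 (1 day) and 3.09 and 3.67 (2 days). From 4 days on it was 2.46, 1.35 and -0.25 (4 days), -0.13, 0.73 and 0.41 (7 days) and -1.67, 0.71, 3.86 and -1.50 (14 days). Early arrays were all higher in dorsal, and the 14 days arrays lay on both sides of 0, with replicate 3 above every early array. The mean was 1.64 ± 0.38 (SE, n = 17, limma adjusted p = 0.0450), higher in dorsal on 13 of 17 arrays. This call was near the threshold. It ended when any 1 of 12 arrays was left out (both of 8 hours, 1 day replicate 3, both of 2 days, all of 4 and 7 days, 14 days replicate 2), with adjusted p of 0.0511 to 0.119 and the log2 difference staying between 1.45 and 1.76 over all 17 such fits. With slide or scan day as a fixed block the adjusted p was 0.0627 and 0.25.

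Emx2, which patterns caudal and medial cortex, had flagged spots at 8 hours replicate 1 and 1 day replicate 2, so 15 arrays gave a value. Its log2 ratio was 0.74 (8 hours), 1.78 and 1.69 (1 day) and 2.33 and 1.56 (2 days). It was -1.17, 0.51 and -0.35 (4 days), 0.02, -0.23 and -0.25 (7 days) and 1.30, 0.02, 0.12 and 0.51 (14 days). The 5 early values were all above 0, while the late ones lay on both sides of 0 at 4 and 7 days and above it at 14 days. The mean was 0.73 ± 0.16 (SE, n = 15, limma adjusted p = 0.0428), higher in dorsal on 11 of 15 arrays. With median centring in place of loess it was 0.10 (limma adjusted p = 0.70), and with processed signals 0.74 (0.144). The call ended when any 1 of 11 arrays was left out (8 hours replicate 1, 1 day replicates 1 and 3, both of 2 days, 4 days replicate 3, all of 7 days, 14 days replicates 3 and 4), with adjusted p of 0.0558 to 0.124, and could not be fitted without 8 hours replicate 2. With slide or scan day as a fixed block the adjusted p was 0.34 and 0.419. With the dimmer probe of Emx2, taken as a feature of its own after the data were seen, the mean was 0.52 ± 0.54 (SE, n = 17, limma adjusted p = 0.705). The log2 ratios of the 2 probes correlated at -0.08 over 15 arrays, as a description, and with both averaged the adjusted p was 0.423 at a mean of 0.52.

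Lhx2, a LIM-homeodomain factor that acts as a selector of cortical fate, did not pass the test. Its log2 ratio was 0.81 and 1.43 (8 hours), 4.71, 0.38 and 1.21 (1 day) and 2.03 and 1.54 (2 days). It was 3.73, -1.06 and -0.68 (4 days), 0.75, 1.26 and 1.15 (7 days) and 1.91, -0.10 and 1.53 (14 days), with a flagged spot at 14 days replicate 2. All 7 early values were above 0, the highest at 1 day replicate 1, which is 1 of the 2 arrays that stood apart. The mean was 1.31 ± 0.40 (SE, n = 16, limma adjusted p = 0.116), with 13 of 16 arrays higher in dorsal.

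Pax6, a paired-box and homeodomain factor, likewise did not pass. Its log2 ratio was 1.79 and 0.90 (8 hours), -0.26, 0.13 and 1.24 (1 day) and 0.90 and 0.77 (2 days). Its later values were 0.02, 1.18 and 1.29 (4 days), 1.25, 0.94 and 1.08 (7 days) and -2.29, -1.01, -0.32 and 0.87 (14 days). Arrays from 2 to 7 days were all above 0, and 3 of the 4 at 14 days were below it. The mean was 0.63 ± 0.21 (SE, n = 17, limma adjusted p = 0.139), with 13 of 17 arrays higher in dorsal. The dimmer probe, over the alternative exon, gave 1.61 ± 0.60 (SE, n = 17, limma adjusted p = 0.216), and the ratios of the 2 probes correlated at 0.34 over 17 arrays. It was well above background on fewer arrays than the brighter one, and in lateral samples its level lay near background at 8 hours. At 14 days it was well above background on 1 of 4 arrays in each wall.

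**Figure D1:**
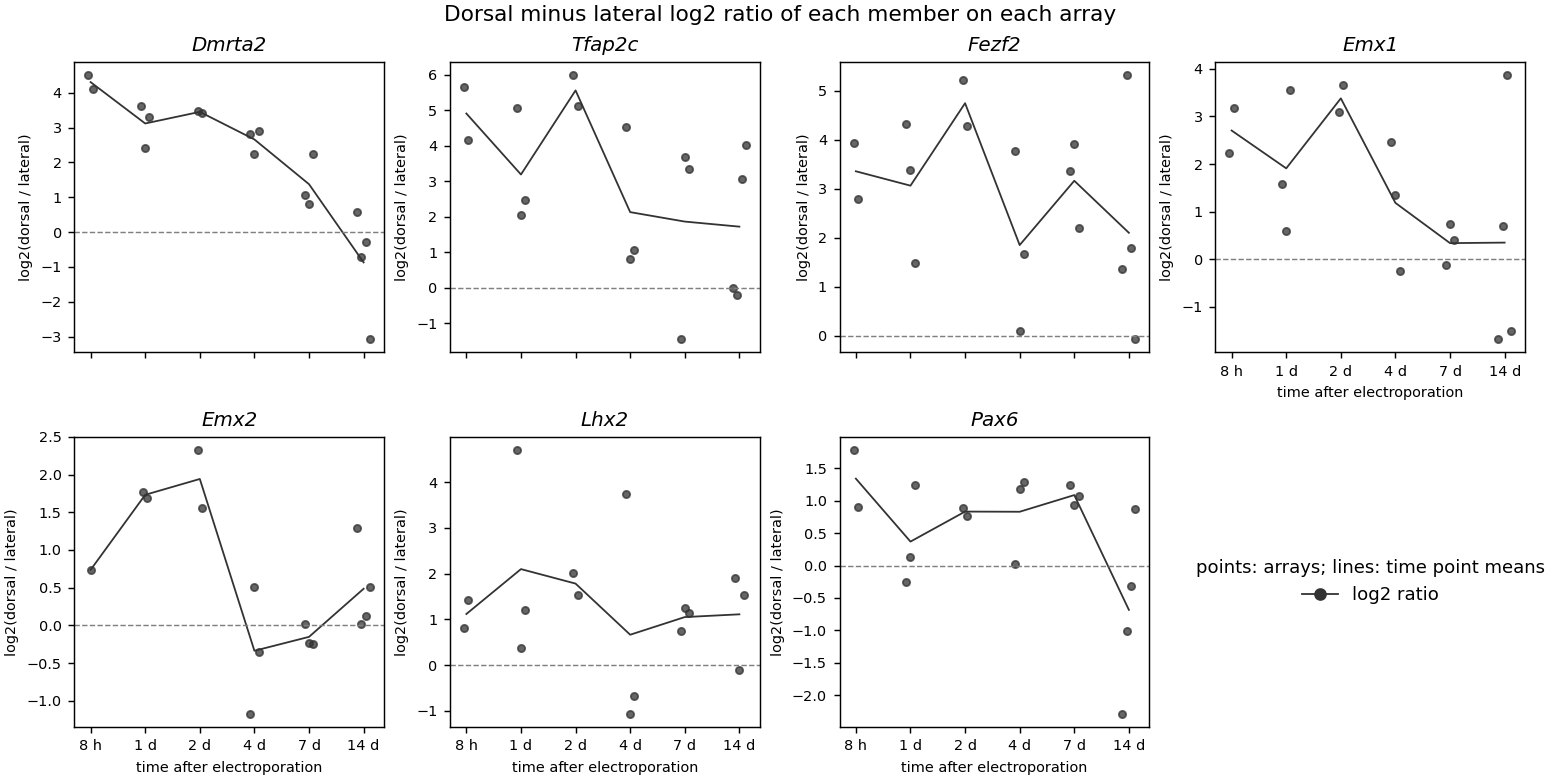
Log2 ratio of dorsal over lateral intensity (vertical axis) for each member on each array (points) against time after electroporation, with lines through the time point means and a dashed line at 0. Early points lie above 0 in 46 of 47 cases, and late points in 48 of 69. Points from the same array are not independent.

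**Figure D2:**
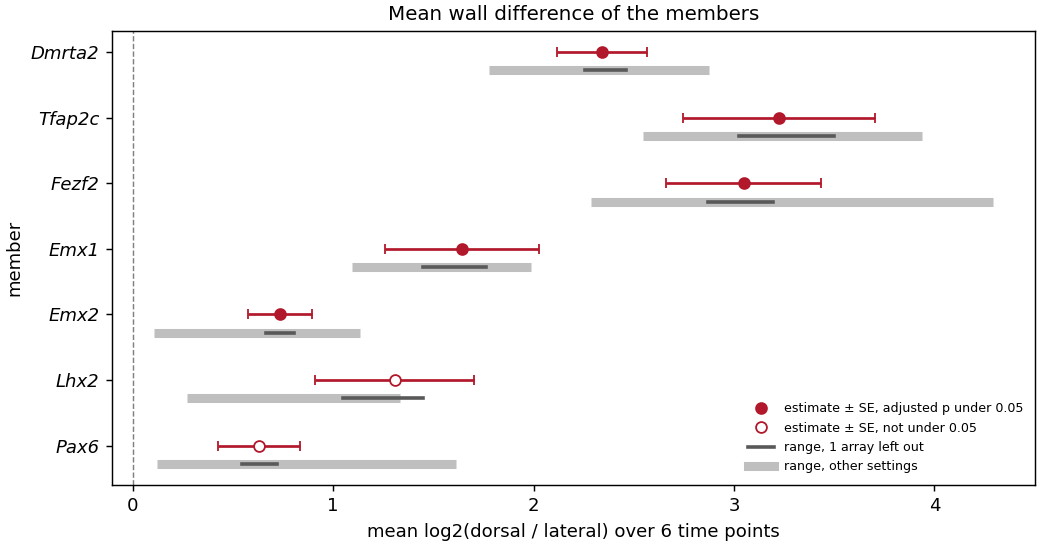
Mean log2 ratio of dorsal over lateral over 6 time points for each member, with its standard error, filled where the limma adjusted p was under 0.05. Dark bars give the range when 1 array was left out and grey bars the range over the other settings: all bars lie above 0, and those of Emx2, Lhx2 and Pax6 come nearest to it.

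Taken by time point, dorsal values above lateral ones were most frequent early. Of the member readings at 8 hours, 1 day and 2 days, 46 of 47 (97.9%) were higher in dorsal, against 48 of 69 (69.6%) at 4, 7 and 14 days. Members read on the same array are not independent, so these shares are descriptions. In the mean of time points, 52.4% of all genes lay on the dorsal side, a share of fitted means and not of single readings. Dmrta2 was called at 8 hours, with a log2 difference of 4.30 ± 0.64 (SE, n = 2, limma adjusted p = 0.00898), and at 1 day, with 3.12 ± 0.52 (SE, n = 3, limma adjusted p = 0.0178). It was the only member called at a single time point, and the share of genes called higher was 0.28% at 8 hours and 0.692% at 1 day. The call at 8 hours was lost without either of its 2 arrays (adjusted p = 0.171 without replicate 1 and 0.0605 without replicate 2), which leaves 1 array assumed to vary like the other groups. The call at 1 day was lost when both arrays that stood apart were left out (2.86, adjusted p = 0.0522). The members with the largest differences at a single time were Tfap2c at 2 days (5.55 ± 1.35, SE, n = 2) and Fezf2 at 2 days (4.75 ± 1.09, SE, n = 2), and neither passed the test (limma adjusted p = 0.194 and 0.159).

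At 2, 4, 7 and 14 days no member was called by limma. Without 14 days replicate 1 or replicate 4, 1 member was called at 2 days. The unadjusted p was under 0.05 for 5 of 7 members (2 days), 1 (4 days), 3 (7 days) and 1 (14 days), while over all genes this share was 7.86%, 5.47%, 5.16% and 10.3%. Few genes passed at all at these times: the share called higher was 0.147% (2 days), 0% (4 days), 0.0227% (7 days) and 0.00379% (14 days). The members' median log2 difference went from 2.70, 2.10 and 3.38 at 8 hours, 1 day and 2 days to 1.18, 1.09 and 0.49 at 4, 7 and 14 days, beside medians over all genes between -0.02 and 0.02.

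Whether the wall difference changed was tested as the mean of 4, 7 and 14 days minus the mean of 8 hours, 1 day and 2 days. The estimate was below 0 for all 7 members, and 1 passed the test. This was Dmrta2, with a change of -2.57 ± 0.45 in log2 ratio (SE, n = 17, limma adjusted p = 0.0375), where 0.25% of all genes were called lower and 0.0492% higher. Its early ratios ran from 2.42 to 4.50 and its late ones from -3.07 to 2.91, so the ranges overlapped. The other changes, none called, were -2.65 for Tfap2c, -2.04 for Emx1, -1.47 for Emx2, -1.35 for Fezf2, -0.72 for Lhx2 and -0.44 for Pax6, and the unadjusted p was under 0.05 for 4 of the 7 members. The F test over the 6 time points called no member (unadjusted 2 of 7) and 0.0985% of all genes, and the adjusted p of Dmrta2 was 0.0700, or 0.0298 without 14 days replicate 4.

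The Dmrta2 call depended on single arrays. It was lost when any 1 of 13 arrays was left out (both of 8 hours, 1 day replicate 3, both of 2 days, all of 4 and 7 days, 14 days replicates 2 and 3), with adjusted p of 0.0506 to 0.124, while the change stayed between -2.73 and -2.32 over all 17 fits. It was also lost in 8 of 14 other settings. Within each of the 3 slides that held early and late arrays, the ratio of Dmrta2 was lower late, with changes of -1.72, -1.54 and -1.89. With slide as a fixed block over these slides the change was -1.72 (limma adjusted p = 0.159). On the same slides the change was also negative 3 of 3 times for Tfap2c (-4.45 to -2.70), Fezf2 (-2.27 to -1.42), Emx1 (-2.63 to -1.92) and Emx2 (-2.90 to -1.04), and 2 of 3 times for Lhx2 and Pax6.

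The change of a ratio can come from either wall, so each wall was tested by itself, on normalized log2 intensities of its own channel. In dorsal samples 4 of 7 members fell from the early to the late times, and none rose. Over all genes 3.55% were called lower and 1.45% higher. The members' median change was -2.16, beside 0.04 over all genes. In lateral samples 1 member, Pax6, rose and none passed as lower, with 3.28% of genes called higher and 2.83% lower, and the members' median change was -0.78, beside 0.03 over all genes.

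Tfap2c fell most in dorsal samples. Its dorsal log2 level was 13.71 and 13.99 (8 hours), 15.71, 14.18 and 14.90 (1 day) and 14.24 and 14.61 (2 days). It was 12.50, 9.62 and 10.60 (4 days), 9.09, 11.36 and 10.06 (7 days) and 7.78, 9.72, 11.44 and 11.12 (14 days). Every early array lay above every late array. The change was -4.04 ± 0.57 (SE, n = 17, limma adjusted p = 0.00134), a fall of 16.5-fold, and it passed in all 17 fits with an array left out and in 13 of 13 other settings. Its lateral level was 8.05 and 9.85 (8 hours), 10.66, 12.15 and 12.43 (1 day) and 8.26 and 9.48 (2 days), and 7.99, 8.83 and 9.52 (4 days), 10.54, 7.67 and 6.71 (7 days) and 7.79, 9.92, 8.38 and 7.12 (14 days). It was highest at 1 day and its lateral change of -1.39 ± 0.59 did not pass (limma adjusted p = 0.240).

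Emx2 fell in dorsal samples as well. Its dorsal log2 level was 10.17 (8 hours), 15.84 and 13.06 (1 day) and 11.54 and 12.49 (2 days). It was 9.45, 10.67 and 9.13 (4 days), 9.55, 8.98 and 8.13 (7 days) and 10.01, 10.30, 8.62 and 9.40 (14 days). The 2 values of 1 day and the 2 of 2 days lay above every late value, and the 1 value of 8 hours lay among the late ones. The change was -2.80 ± 0.52 (SE, n = 15, limma adjusted p = 0.00965), and in lateral samples it was -1.33 ± 0.52 (adjusted p = 0.197, or 0.0477 without 1 day replicate 3). With its 2 probes averaged the dorsal change was -1.98 and did not pass (limma adjusted p = 0.0709), and the lateral one was -1.30 and did (adjusted p = 0.0194).

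Dmrta2 was higher early than late in dorsal samples and showed no such fall in lateral ones. Its dorsal log2 level was 11.99 and 11.67 (8 hours), 13.88, 12.52 and 11.89 (1 day) and 10.36 and 10.85 (2 days). It was 9.38, 10.18 and 11.33 (4 days), 7.98, 9.29 and 10.12 (7 days) and 11.03, 8.68, 8.80 and 7.35 (14 days). The dorsal levels of 8 hours and 1 day lay above all late ones, and those of 2 days lay among them. In lateral samples it was 7.49 and 7.57 (8 hours), 10.26, 10.10 and 8.58 (1 day) and 6.88 and 7.43 (2 days). Late lateral levels were 6.56, 7.93 and 8.43 (4 days), 6.93, 8.48 and 7.87 (7 days) and 10.44, 9.40, 9.08 and 10.41 (14 days). The lateral values were high at 1 day and 14 days, the 2 time points with a slide of their own, and low at the others. The dorsal change was -2.27 ± 0.52 (SE, n = 17, limma adjusted p = 0.0234) and the lateral change 0.30 ± 0.37 (adjusted p = 0.812). The dorsal call was lost without either array of 8 hours or of 2 days, with adjusted p of 0.0596 to 0.0848.

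Lhx2 had a dorsal log2 level of 15.24 and 15.58 (8 hours), 16.13, 16.09 and 16.84 (1 day) and 16.98 and 16.04 (2 days). It was 16.38, 13.28 and 12.09 (4 days), 13.47, 14.36 and 12.59 (7 days) and 13.81, 14.40 and 15.03 (14 days). Of the late arrays only 4 days replicate 1 reached the early range. The dorsal change was -2.16 ± 0.54 (SE, n = 16, limma adjusted p = 0.0403), and it ended when any 1 of 13 arrays was left out (all of 8 hours, 1 day and 2 days, 4 days replicates 2 and 3, 7 days replicates 1 and 3, 14 days replicates 1 and 3), with adjusted p of 0.0552 to 0.134. It also ended in 6 of 13 other settings: median centring (limma adjusted p = 0.0802), quantile normalization over channels (0.0707), the replicate block (0.102), slide as a random (0.0617) or fixed block (0.0517) and scan day (0.116). Its lateral change was -1.43 ± 0.65 (limma adjusted p = 0.287, or 0.0187 without 1 day replicate 1), so both walls had lower values late.

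Fezf2 and Emx1 had lower late values in dorsal samples that did not pass the test. Dorsal levels of Fezf2 were between 10.41 and 12.54 early and between 6.39 and 13.40 late, high again at 14 days, and the change was -2.13 ± 0.62 (SE, n = 17, limma adjusted p = 0.0689, but 0.0379 without 4 days replicate 1 and 0.0223 without 14 days replicate 2). Its lateral level was lowest at 4 and 7 days, with a mean of 6.23 ± 0.20 (SD, n = 3) at 4 days and 5.75 ± 0.08 (SD, n = 3) at 7 days, near background, against 9.06 ± 0.73 (SD, n = 4) at 14 days. Emx1 had dorsal levels between 9.65 and 13.33 early and between 8.67 and 12.20 late, with a change of -1.87 ± 0.66 (SE, n = 17, limma adjusted p = 0.148). Its lateral levels stayed between means of 9.14 and 9.82 at all 6 times, with a change of 0.17 ± 0.48 that turned to -0.08 without 1 day replicate 3.

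Pax6 took the other course. Its lateral log2 level was 8.53 and 9.72 (8 hours), 8.07, 10.07 and 8.93 (1 day) and 10.05 and 10.10 (2 days). It was 11.10, 11.74 and 11.97 (4 days), 9.98, 10.27 and 11.32 (7 days) and 10.75, 10.11, 10.62 and 11.85 (14 days). Late arrays lay above early ones apart from a narrow overlap between 7 days replicate 1 and the highest early arrays. The lateral change was 1.58 ± 0.35 (SE, n = 17, limma adjusted p = 0.0171), a rise of 2.99-fold, and it was lost without 8 hours replicate 1 (1.38, adjusted p = 0.0738) or either array of 2 days (1.57 and 1.59, adjusted p = 0.0550 and 0.0510), and with the 2 probes averaged (1.13, adjusted p = 0.0512). Its dorsal level was 10.32 and 10.61 (8 hours), 7.81, 10.20 and 10.17 (1 day) and 10.94 and 10.86 (2 days). Late dorsal levels were 11.12, 12.92 and 13.26 (4 days), 11.23, 11.21 and 12.40 (7 days) and 8.46, 9.11, 10.30 and 12.72 (14 days). The dorsal values peaked at 4 days and spread widely at 14 days, and the change of 1.14 ± 0.60 did not pass (limma adjusted p = 0.379).

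Within the slides that crossed time points, the dorsal change was negative on 3 of 3 slides for Tfap2c (-4.12 to -3.45), Emx2 (-2.66 to -1.53), Dmrta2 (-1.68 to -1.10), Lhx2 (-3.07 to -2.06), Fezf2 (-3.43 to -2.25) and Emx1 (-3.00 to -1.56). Pax6 was positive on 3 of 3 slides in dorsal (0.23 to 2.36) and in lateral samples (0.50 to 2.52). These slides hold no arrays of 1 day or 14 days, so 4 and 7 days are set against 8 hours and 2 days. Dorsal means at 4, 7 and 14 days were 8.08, 8.91 and 11.16 for Fezf2, 12.43, 11.61 and 10.15 for Pax6, and 10.53, 9.69 and 10.17 for Emx1. With slide as a fixed block over these times, the dorsal changes of 3 members passed that did not pass over all 17 arrays: Emx1 at -2.42 (limma adjusted p = 0.027), Fezf2 at -3.13 (0.0314) and Pax6 at 1.54 (0.0397). The effect of the times left out was not tested apart from that of the block. In the same fit Lhx2 lost its dorsal call (-2.60, limma adjusted p = 0.0517). In lateral samples Fezf2 (-2.01 to -0.60) and Lhx2 (-2.27 to -0.78) were lower late on 3 of 3 slides, and with slide as a fixed block both passed, Fezf2 at -1.44 (limma adjusted p = 0.0481) and Lhx2 at -1.85 (0.0242).

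**Figure D3:**
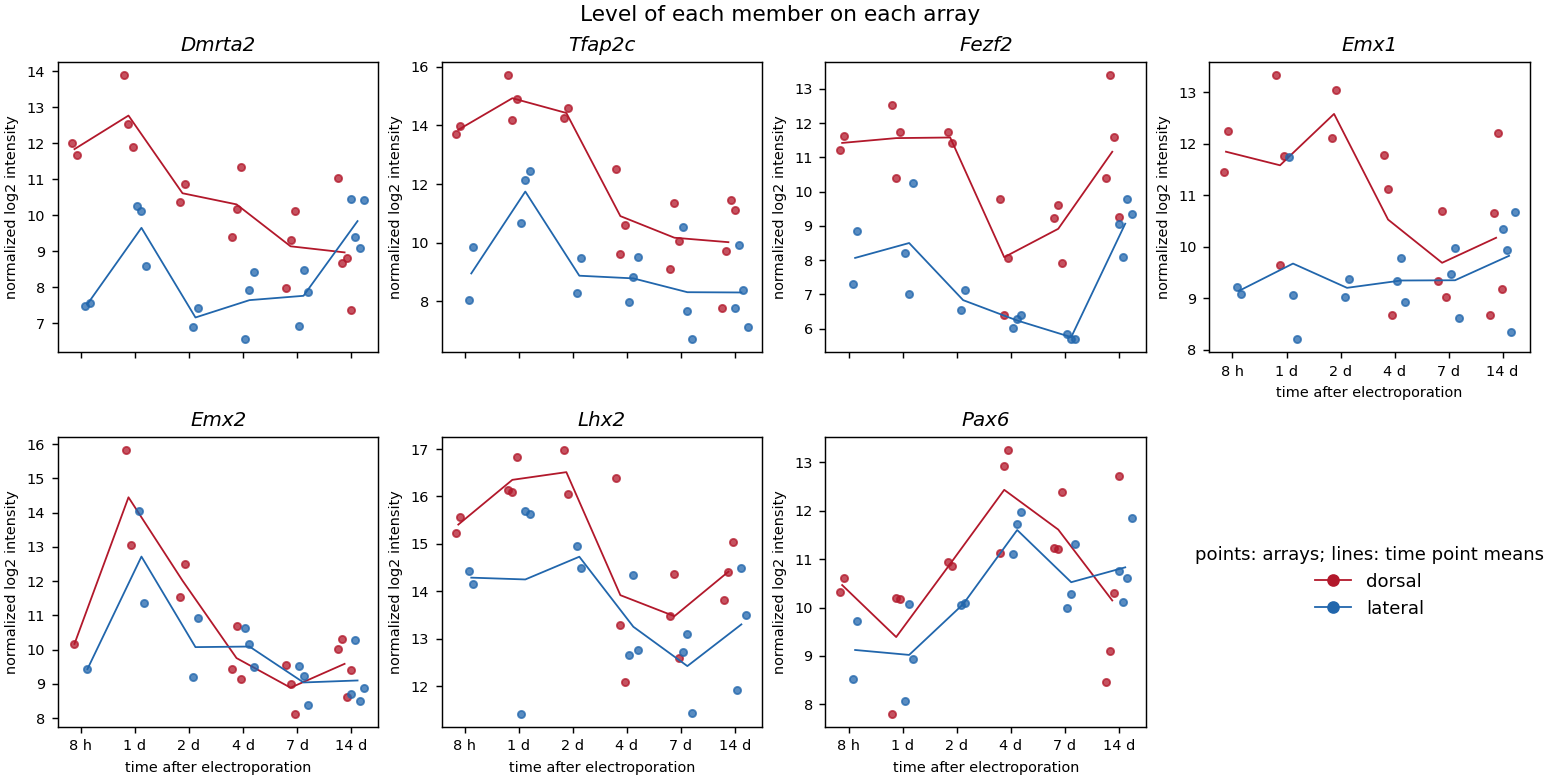
Normalized log2 intensity (vertical axis, a scale of its own per panel) of each member in dorsal and lateral samples on each array (points) against time after electroporation, with lines through the time point means. Dorsal Tfap2c falls from early values of 13.71 and above to late values of 12.50 and below, and Pax6 is highest at 4 days in both walls.

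**Figure D4:**
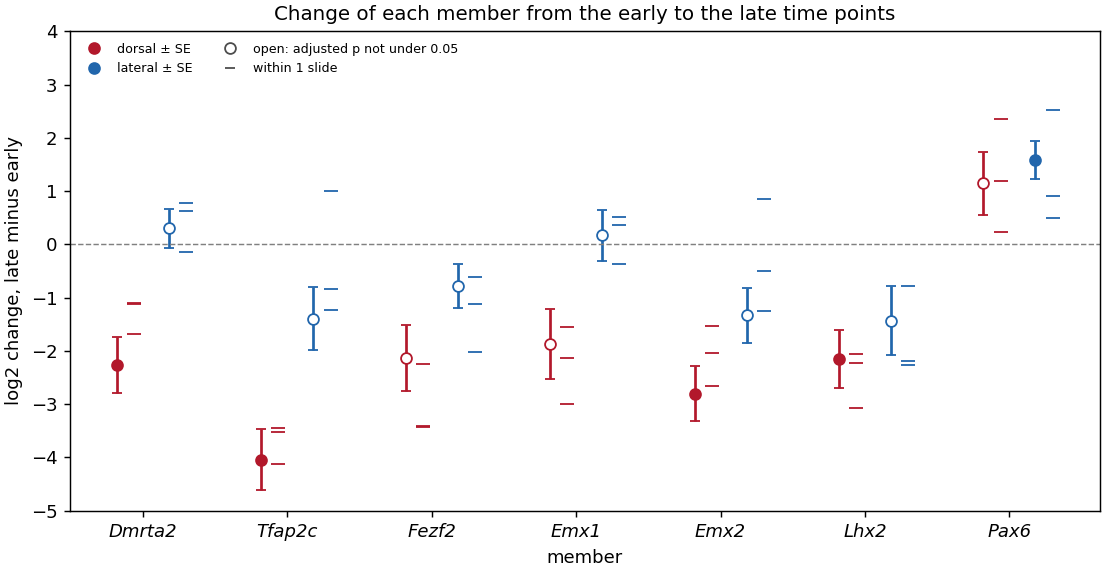
Log2 change of each member from the early to the late time points in dorsal and lateral samples with its standard error, filled where the limma adjusted p was under 0.05, beside the change within each of 3 slides (short lines). In dorsal samples 6 of 7 estimates lie below 0, and Pax6 lies above 0 in both walls.

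Ranked by mean level, neighbouring time points seldom separated. Each measure had 35 pairs of neighbours in the members' rank orders of time points, and the ranges were apart in 9 pairs for dorsal levels, 9 for lateral levels and 6 for ratios. Dorsal Tfap2c ranked highest at 1 day, then 2 days, 8 hours and the late times in turn, with 2 days apart from 8 hours and 8 hours apart from 4 days. Dorsal Dmrta2 ranked highest at 1 day, then 8 hours, 2 days and the late times in turn, and only 8 hours and 2 days were apart. Lateral Pax6 was highest at 4 days (11.60 ± 0.45, SD, n = 3) and lowest at 1 day (9.02 ± 1.00, SD, n = 3), with 2 days apart from 8 hours. The F test over time points called Emx2 (limma adjusted p = 0.0419) and Tfap2c (0.0164) in dorsal samples, where 3.51% of genes were called, and Dmrta2 (0.0410) and Fezf2 (0.0324) in lateral samples, where 4.68% were.

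Of these 4 F calls, 3 were lost when single arrays were left out. Emx2 was lost without any 1 of 11 arrays (1 day replicates 1 and 2, all of 2, 4 and 7 days, 14 days replicate 4), with adjusted p of 0.0522 to 0.0971. Dmrta2 was lost without any 1 of 10 (both of 8 hours, 1 day replicate 2, both of 2 days, 4 days replicate 2, 7 days replicates 1 and 3, 14 days replicates 1 and 4), with 0.0575 to 0.0928. Fezf2 was lost without any 1 of 12 (8 hours replicate 2, all of 2, 4 and 7 days, 14 days replicates 1, 3 and 4), with 0.0503 to 0.0756. Tfap2c passed in all 17 such fits. Its call was lost without both arrays that stood apart (limma adjusted p = 0.0537) and with slide (0.108) or scan day (0.212) as a fixed block. With slide as a fixed block the dorsal call was Dmrta2 (0.0309). Calls gained were Dmrta2 in dorsal without 14 days replicate 1 (0.0168), Lhx2 in dorsal without 4 days replicate 1 (0.021) and Pax6 in lateral without 1 day replicate 2 (0.0365).

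The members were set beside lists of genes that act with them. Of 10 genes of glutamatergic descendants, which pallial progenitors make, 4 were higher in dorsal in the mean of time points and 9 of 10 were on the dorsal side, with a median log2 difference of 1.43 beside 0.02 over all genes. Those called were Tbr1 (3.12 ± 0.49, limma adjusted p = 0.00803), a T-box factor of early projection neurons, Neurod6 (1.94 ± 0.32, 0.00969), a helix-loop-helix factor of pallial neurons, Slc17a6 (3.08 ± 0.51, 0.0104), a vesicular glutamate transporter, and Eomes (1.64 ± 0.35, 0.0307), the T-box factor of intermediate progenitors. Neurod6 is also 1 of 8 listed markers of cortical excitatory neurons, which had a median of 0.15. Of these 8, Neurod6 was called higher in dorsal and Bcl11b lower (-2.22 ± 0.44, limma adjusted p = 0.0238). Of 16 measured subpallial factors, 4 were lower in dorsal and none higher, with a median of -0.44. These were the homeobox genes Dlx2 (-1.98 ± 0.12, limma adjusted p = 1.14e-05), Gsx2 (-0.70 ± 0.10, 0.00468), Dlx1 (-1.90 ± 0.28, 0.0059) and Vax1 (-1.81 ± 0.35, 0.0216).

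Of 19 other pallial progenitor factors measured, 2 were higher in dorsal, Hopx (0.79 ± 0.14, limma adjusted p = 0.0155) and Id4 (0.70 ± 0.15, 0.0346), and the median was 0.02, like that over all genes. Limma called none of 19 cortical signalling centre genes or 8 LIM partners of Lhx2 (unadjusted p under 0.05 for 2 and 1), and 1 of 10 olfactory neuron factors was lower, Tshz1 (-0.78 ± 0.19, 0.0481). From early to late, the wall difference fell for Hopx (-1.60 ± 0.29, limma adjusted p = 0.0428), and among subpallial factors it moved towards dorsal for Dlx2 (3.13 ± 0.23, 0.000198) and Gsx2 (1.18 ± 0.20, 0.0336).

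In dorsal samples, as 4 members fell, 3 of 16 subpallial factors rose: Dlx5 by 4.56 ± 0.31, Dlx2 by 3.71 ± 0.41 and Dlx1 by 4.09 ± 0.57 on the log2 scale (limma adjusted p = 3.11e-06, 0.000233 and 0.00121). Of the other pallial progenitor factors 2 rose and 3 fell. Gli3, which represses hedgehog targets, fell by 5.18 ± 0.75 (0.00154), and Sp8, also listed as an olfactory neuron factor, rose by 3.79 ± 0.43 (0.000278). Eomes fell too, by 2.63 ± 0.55 (0.0141). In lateral samples Pax6 rose with 4 other genes of the 10 olfactory neuron factors, of which Sp8 rose by 4.14 ± 0.35 (1.99e-05).

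**Figure D5:**
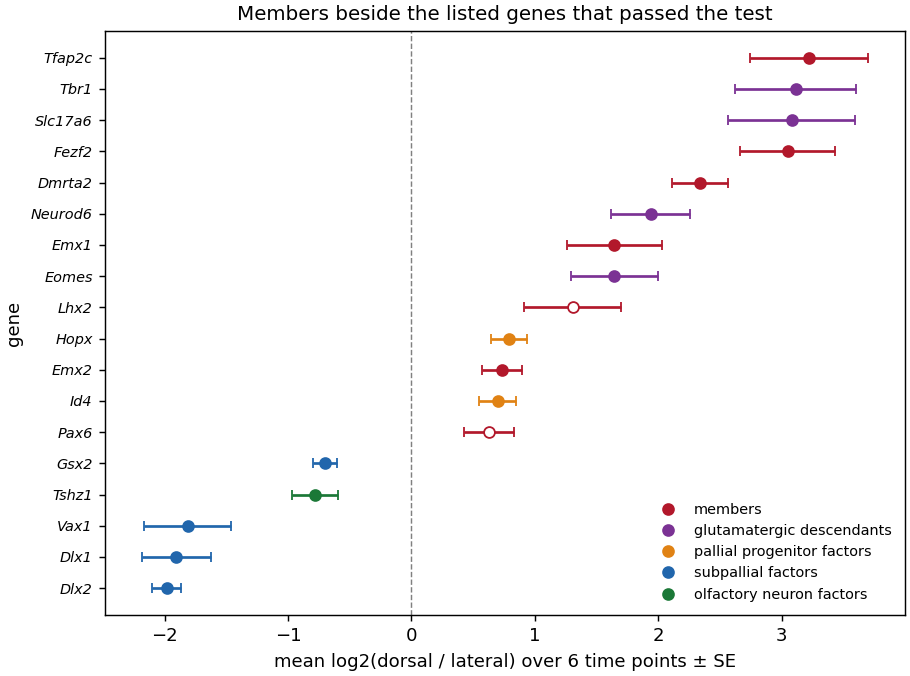
Mean log2 ratio of dorsal over lateral with its standard error for the 7 members and for the listed genes that passed the test, coloured by list. Lists of cell type markers are left out, and open symbols show the 2 members that did not pass. The members, the glutamatergic genes, Hopx and Id4 lie above 0 and the subpallial genes and Tshz1 lie below it.

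Markers of cell types moved over the same times. In dorsal samples 5 of 11 radial glia and stem cell markers, 4 of 8 astrocyte markers and 4 of 8 ependymal markers fell and 1 ependymal marker, Dnah11, rose, while 6 of 10 neuroblast and 2 of 8 mature neuron markers rose. The summed intensity of the radial glia list was 423200 to 682100 in early and 96470 to 257300 in late dorsal samples, and that of the neuroblast list 69410 to 273800 and 38180 to 407000. In lateral samples 3 of 11 radial glia, 2 of 8 astrocyte and 5 of 8 ependymal markers fell, and 8 of 10 neuroblast and 3 of 8 mature neuron markers rose. There the radial glia list summed to 118800 to 283800 early and 51350 to 200300 late, and the neuroblast list to 42770 to 228400 and 245000 to 423300. Between the walls, 4 of 11 radial glia and 3 of 8 astrocyte markers were higher in dorsal in the mean of time points. No listed marker of any of these types was below background on all arrays. The part of these cell types in the members' differences was not tested.

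Other cells were also present in the sorted samples. In dorsal samples the erythroid list summed to 94100 to 1132000 early and 613 to 452000 late, with 3 of 6 genes tested lower late. In lateral samples it summed to 2920 to 139600 early and 2671 to 95640 late. Hbb-bt, a beta globin gene, was 13.04-fold higher in dorsal in the mean of time points (limma adjusted p = 0.00836), and higher on 10 of 14 arrays. It was the only 1 of 6 erythroid genes tested that was called there. Of these, 4 of 6 lay on the dorsal side, with a median log2 difference of 0.47. In dorsal samples Hbb-bt was lower late (-1.41 ± 0.35, limma adjusted p = 0.0473), as were 4 members. The microglia list summed in dorsal samples to 28750 to 398900 early and 4004 to 392600 late, and in lateral samples to 2016 to 362000 early and 5788 to 466100 late. Their part in the members' differences was not tested either.

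In their log2 ratios the members did not vary as 1 block from array to array. Over the 21 pairs of members the correlation of log2 ratios had a median of 0.31 and ran from -0.37 (Pax6 with Lhx2, 16 arrays) to 0.55 (Emx1 with Dmrta2, 17 arrays). Taken within time points the median was 0.01, with 11 of 21 pairs positive. Dorsal levels had a median of 0.52, with 15 of 21 pairs positive and the 6 pairs with Pax6 all negative. Lateral levels had a median of 0.03, with 11 of 21 pairs positive. Both members of a pair share their array, its slide and its normalization, and these correlations are descriptions.

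Of 24736 other genes, those whose log2 ratio went most like the mean of the 7 members over 17 arrays were Ednra (r = 0.81), Plce1 (0.80), Ash1l (0.80), Tmem254a (0.79) and Ttyh1 (0.79). By single members the most alike were Phc3 for Emx1 (0.83), B3gat1 for Emx2 (0.93, 15 arrays), Eef2 for Pax6 (0.89), Sdsl for Dmrta2 (0.85), Pfas for Tfap2c (0.82), Arhgef3 for Fezf2 (0.80) and an unnamed probe for Lhx2 (0.92, 16 arrays). Each is the highest of many correlations and no test.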

How the data were processed

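The deposited scanner files gave fluorescence intensity per spot, made by the authors with Feature Extraction (10.5.1.1 or 10.7.3.1), per the file headers. Per the labels' protocols, the mRNA went through global PCR amplification before labelling, with an unknown effect on ratios. Mean signals were corrected with normexp (offset 50, median local background), log ratios were normalized by loess with control spots at weight 0, and mean log2 levels by quantiles between arrays (Aquantile). Flagged spots were set to missing. The filter kept 36771 of 41174 probes, those well above background on 2 or more arrays in either channel, and the brightest probe represented a gene, giving 26447 genes (26403 where 14 days entered). Names came from RefSeq accessions for 26876 probes and from symbols or synonyms for 3241. Limma 3.58.1 under R 4.3.3 (lmFit, eBayes) fitted 1 mean per time point over all 17 arrays, with two-sided p-values adjusted by Benjamini-Hochberg over all genes at a threshold of 0.05. All adjusted p-values are from limma. The script was tested on simulated data. P-values measure the spread between the labelled replicates, and the number of arrays limits the precision.

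The scanner's log10 ratio of red over green, in the deposited files, showed that the deposited value table holds log2 values of Cy3 over Cy5, centred near 0 (column medians -0.164 to 0.0459, correlation with the log10 ratio -0.97 to -0.90 across 41174 probes). How it was normalized stays unknown here, and it was an alternative for wall differences only. For a dim wall, the fold took the higher of the probe's own signal and the lowest signal well above background on each array. That lowest signal is an extreme and no detection limit, so the fold is no strict bound.

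The members and gene lists were chosen with earlier results of these data known. Genes named from a list were those called in the mean wall difference, at most 4 per list, and those called in the changes over time that are named in the text were chosen after their values were seen. Replicate numbers did not pair arrays: over 36 pairs of arrays with the same number at different times, deviations from the time means correlated at -0.04 to 0.08. Alternatives were normexp offset 10, the processed signals, median centring, quantile normalization over channels, no filter, a filter on 9 arrays, the mean over probes, array weights, leaving out both arrays that stood apart, replicate, slide or scan day as a block, and each array left out. The dimmer probes as features of their own were added after seeing the data. Plots used matplotlib 3.10.9 (Python 3.11.15).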

Additional observations from a re-analysis of the deposited data

Results flagged for a closer look

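Dmrta2 was flagged for a change from early to late that differed between the walls, the same test as above. The dorsal change minus the lateral change was -2.57 in log2 (SE 0.45, limma adjusted p = 0.0375), with -2.27 in dorsal and 0.30 in lateral samples. This call was lost when any 1 of 13 arrays was left out and in 8 of 14 other settings. Among 24 sets of 4 values at 14 days (levels and ratios of 9 probes, those with 4 measured arrays), 3 held a sample far from the others by Dixon's test, where chance gives about 1 in 20. The dimmer Emx2 probe had a dorsal log2 level of 15.61 at 14 days replicate 2, an array that stood apart, against 7.50 to 8.72 on the others. The dimmer Pax6 probe had a dorsal level of 11.46 at 14 days replicate 4, against 6.19 to 6.65, and a log2 ratio of 5.11, against -0.36 to 0.03. At 14 days replicate 4 was the only array of 4 where its dorsal signal was well above background. Its lateral signal was so on 1 of 4, so the values it is set against lie near background. No far value was found for the probes that represent the members, but Lhx2, with 3 values at 14 days, was not tested.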

How the results depend on the processing

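Over 51 results on single members, 1334 of 1548 values under other settings kept direction and side of the threshold, 166 lost the call, 46 gained one, and 2 changed sign: the lateral change of Emx1 was 0.17, but -0.0037 with quantile normalization over channels and -0.0777 without 1 day replicate 3 (from -0.0777 to 0.5132 over all fits without 1 array). The cause was not tested for any of these. The 1334 include results that had no call to begin with and gained none. Their share of 1548 is therefore no measure of how stable the calls were.

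The count of members called in the mean wall difference (5) was 3 with offset 10, processed signals, median centring, the replicate block, the deposited value table or without both arrays that stood apart, 1 with slide as a fixed block, and 0 with scan day as a block. Those blocks drop arrays (slides 2 and 5, or 1 day). The count was 4 with the filter on 9 arrays or the mean over probes, 6 with array weights and 7 with slide as a random block. Pax6 passed with array weights (limma adjusted p = 0.0443), and Pax6 (0.015) and Lhx2 (0.0184) passed with slide as a random block. In the counts below, smaller moves under other settings are not listed. Without 1 array the count was 3 to 5. Tfap2c, Fezf2 and Dmrta2 were called in all 17 such fits.

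At 8 hours the count (1) was 0 with processed signals, both fixed blocks and the value table, 3 with array weights and 2 with slide as a random block, and without 1 array 0 to 1. At 1 day (1) it was 0 with processed signals, quantile normalization, array weights, the value table or without both arrays that stood apart, 4 with slide as a random block, and 1 to 1 without 1 array. At 2 days (0) it was 3 with array weights, 1 with slide as a random block or without both arrays that stood apart, and without 1 array 0 to 1. At 14 days (0) it was 1 with slide as a random block.

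For the late minus early change of the wall difference (1) it was 0 with offset 10, processed signals, median centring, quantile normalization, both fixed blocks, the value table or without both arrays that stood apart, 2 with array weights, and 0 to 1 without 1 array. The F test of wall differences (0) gave 1 with array weights or slide as a random block, and 0 to 1 without 1 array. The dorsal change (4) gave 2 with the replicate block, 1 with scan day, and 1 to 5 without 1 array. The lateral change (1) gave 2 with array weights or without both arrays that stood apart, 3 with slide as a fixed block, 0 with scan day, and 0 to 2 without 1 array.

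The dorsal F test (2) gave 1 with offset 10, processed signals, no filter, the mean over probes or slide as a fixed block, 0 with scan day or without both arrays that stood apart, 7 with array weights, 6 with slide as a random block, and 1 to 3 without 1 array. The lateral F test (2) gave 1 with offset 10, processed signals, quantile normalization, slide as a fixed block or without both arrays that stood apart, 0 with the replicate block or scan day, 5 with array weights or slide as a random block, and 0 to 2 without 1 array.

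Replicate numbers name the arrays, and at 2, 4 and 7 days they also go with the slide. With the replicate block, Dmrta2, Tfap2c and Pax6 (1.15, limma adjusted p = 0.0466, not called without the block) passed in the mean wall difference, and Fezf2 (2.29, 0.0729), Emx1 (1.26, 0.354) and Emx2 (0.73, 0.303) did not. The random slide block had an estimated correlation of -0.17 for ratios, -0.22 for dorsal and -0.24 for lateral levels. Median centring left a median of -0.21 over all genes in the mean wall difference, with 6.4% of genes higher and 16.7% lower. Relative to it Dmrta2 stood at 2.05, Tfap2c at 2.76, Fezf2 at 2.91, Emx1 at 1.31, Lhx2 at 0.48, Pax6 at 0.33 and Emx2 at 0.31. Signal over background limits Fezf2 in lateral samples at 4 and 7 days. It also limits the dimmer Pax6 probe in lateral samples at 8 hours and in both walls at 14 days.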
